A study of Mus musculus with 15 samples.

Results

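Cadherins are calcium-dependent adhesion molecules that hold neighbouring cells together, mostly by binding the same cadherin on the next cell. Classical cadherins anchor to the actin cytoskeleton through catenins, and N-cadherin (Cdh2) is the best known of them in the junctions of adult neural stem cells and astroglia. Protocadherins are a larger family of related proteins: the clustered ones give neurons and astrocytes a cell-surface identity code, and the non-clustered delta group steers cell sorting and actin remodelling. The members described here are all genes on the array whose platform symbol starts with Cdh or Pcdh followed by a digit, or with Pcdha, Pcdhb or Pcdhg. The rule found 56 of the 18193 genes measured, each read from the one of its probe sets whose mean over the 15 arrays was highest.

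The arrays measured RNA of Gli1+ GFAP+ cells, astroglia that had responded to the secreted signal Sonic hedgehog, with 5 arrays each for the subventricular zone (SVZ), hippocampus and cerebellum they were sorted from. All donors were male Gli1-CreER;GFAP-GFP;R26tdTomato mice, 6 to 8 weeks old, and all received tamoxifen, 2 doses of 10 mg, with sorting 3 weeks later. The amplified RNA on an array came from a pool of 10 to 12 mice, and sorting depended on the Gli1 and GFAP drivers of the transgenes. Neural stem cells persist in the adult SVZ and hippocampus but not in the cerebellum, so stem cell presence and brain region cannot be told apart. The labels do not say whether the pools came from separate litters, so p values measure the spread between pools, part of which may be technical.

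Values were deposited as RMA levels, read as log2 signal, and array medians lay between 1.12 and 1.31, so a level near 1 sits at the middle of all probe sets. A level of 2 is used below only to describe how many arrays stood above that middle. Probe sets differ in how strongly they bind, so levels are compared between regions for 1 probe set and not between genes. Pairs of arrays correlated at 0.763 to 0.894 within SVZ, 0.791 to 0.884 within hippocampus and 0.939 to 0.970 within cerebellum. The 24 poly-A spike-in probe sets, which report RNA added at the same amount to each sample, averaged 12.59 ± 0.86 in SVZ, 12.47 ± 0.57 in hippocampus and 10.30 ± 1.64 in cerebellum (SD, n = 5 each). They therefore moved with region, and their part in the results was not tested beyond the covariate fits given below. The 13 astrocyte markers summed to 105 to 111 on the SVZ arrays, 99.0 to 115 on the hippocampal arrays and 109 to 123 on the cerebellar arrays, and 0 of the 13 had a mean under 2 in any region. By limma 4 of the 13 were called in each comparison with cerebellum (3 lower and 1 higher in SVZ, 4 lower in hippocampus), against 5.51% and 4.78% of all genes. Gfap, the intermediate filament gene whose promoter drove the GFP, ranged from 2.69 to 5.46 in SVZ, 6.20 to 7.60 in hippocampus and 3.26 to 6.03 in cerebellum. Gli1 itself had a median of 2.30 in SVZ, 2.12 in hippocampus and 3.11 in cerebellum.

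By structure, the 56 members were 5 type I and 11 type II classical cadherins, 5 other cadherins, 4 delta-1, 5 delta-2 and 3 other non-clustered protocadherins, 22 beta cluster protocadherins and 1 gamma cluster gene. All 22 beta cluster genes and the gamma cluster gene lie on chromosome 18. No alpha cluster gene had a probe set of its own, and 6 further probe sets were annotated to several alpha cluster genes at once. Those 6 had means between 0.75 and 1.19, and limma called 0 of them in each comparison. Their smallest adjusted p was 0.114, in SVZ minus cerebellum.

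Most of the family was at or near the array median in these cells. Of the 56 members, 11 (19.6%) had a mean of 2 or more over the 15 arrays, against 40.6% of all genes, and 25 members reached 2 on no array. On all 15 arrays 4 members stood at 2 or more, namely Cdh2, Cdh10, Pcdh9 and Pcdh10. Another 5 stood at 2 or more on 14 arrays, namely Cdh11, Cdh20, Pcdh7, Pcdh17 and Pcdhb14. Cdh22 did so on 8 arrays and Pcdhgc4 on 9. The highest mean among the other probe sets was 2.55 for Pcdh10, 1.14 for Pcdh7, 1.87 for Pcdh17 and 1.35 for Pcdhb14. The chosen ones averaged 5.58, 4.14, 4.67 and 3.67, so levels this high rest on 1 probe set each. For Cdh2, Cdh10, Cdh11 and Pcdh9 another probe set averaged 4.49, 3.45, 3.59 and 4.40. The 5 other cadherins and the 3 other non-clustered protocadherins had no member with a mean of 2 or more, and each remaining structural group had at least 1.

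**Figure D1:**
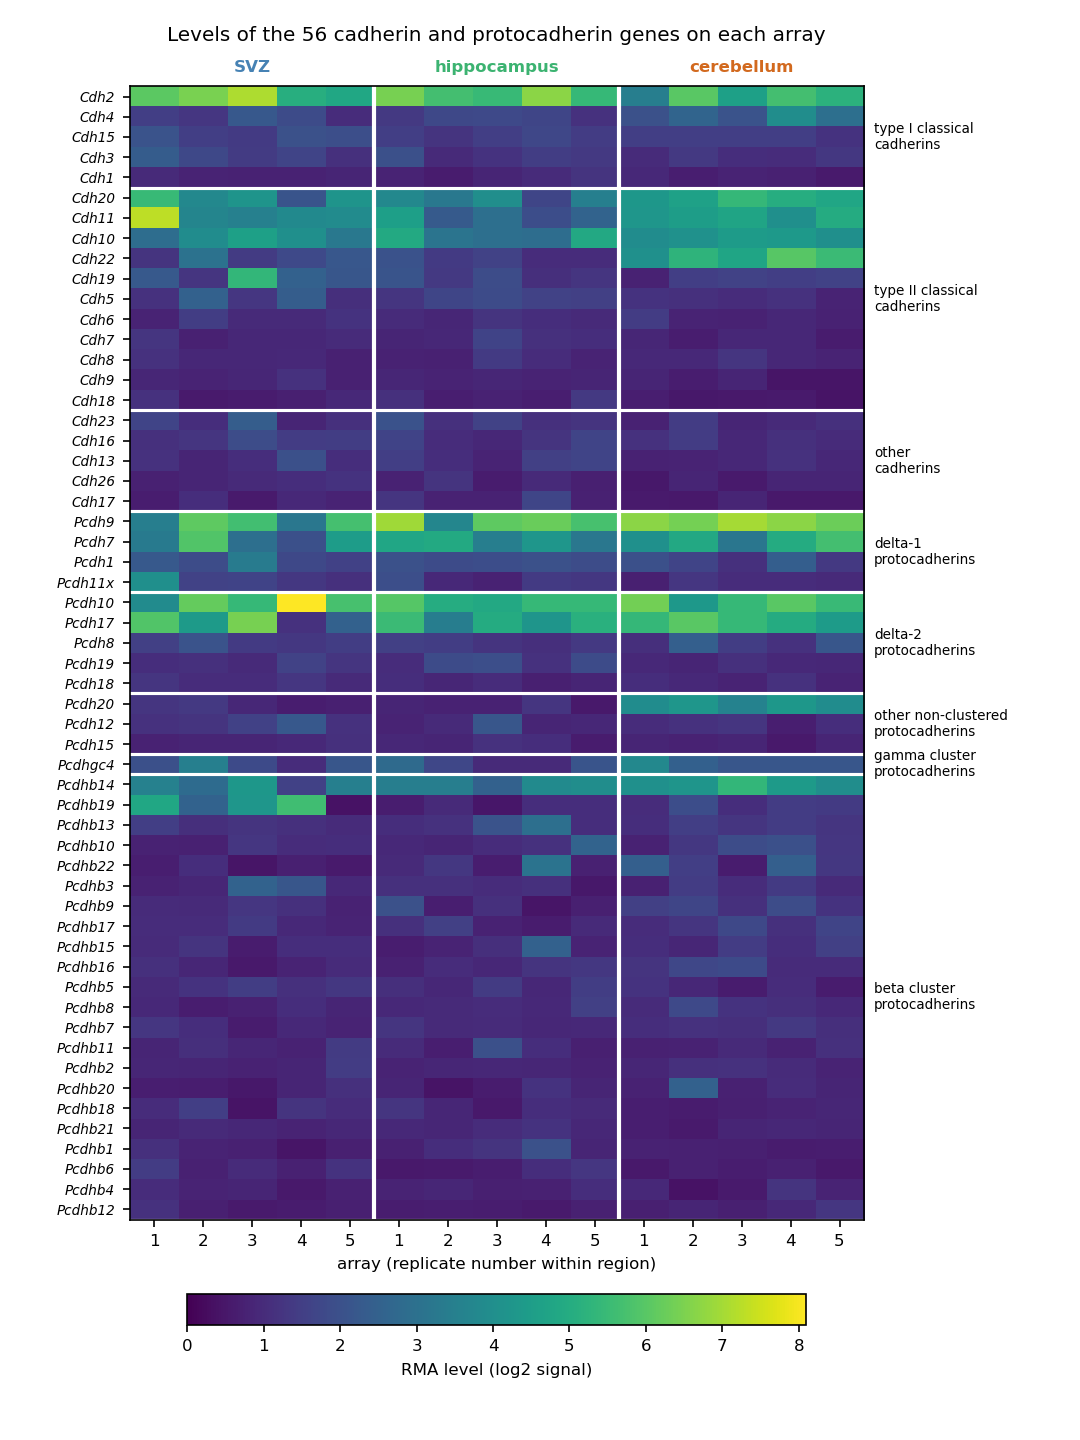
Heat map of RMA levels (log2 signal, colour scale from 0 to about 8) of the 56 members (rows, grouped by structure) on the 15 arrays (columns, SVZ, hippocampus and cerebellum). Most rows are dark, near the array median, and Cdh22 and Pcdh20 are bright on the 5 cerebellar arrays.

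Levels of 2 or more were patchier between arrays of the forebrain regions than between cerebellar arrays. In SVZ 6 members were at 2 or more on all 5 arrays and 17 on 1 to 4 of them, in hippocampus 7 and 14, and in cerebellum 13 and 4. Of all genes, 35.4% were at 2 or more on 1 to 4 SVZ arrays, 35.9% on 1 to 4 hippocampal arrays and 18.0% on 1 to 4 cerebellar arrays, so both forebrain shares were above the cerebellar one there too. Among the 11 members with a mean of 2 or more, SDs between arrays had a median of 1.21 for SVZ, 0.785 for hippocampus and 0.592 for cerebellum. SVZ array 4 was the lowest of its region for 6 of these 11 members and hippocampal array 1 the highest of its region for 7. Such counts over all genes are not given, and whether these are particular to the members was not tested.

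The question put by the design is which genes the sorted cells of each stem cell region express differently from those of the cerebellum. 2 members were called lower in both SVZ and hippocampus than in cerebellum: Cdh22, a type II cadherin of brain and pituitary, and Pcdh20, a non-clustered protocadherin. A call is an adjusted p under 0.05 from limma, with Benjamini-Hochberg adjustment over all 18193 genes. In SVZ minus cerebellum 2 of 56 members (3.57%) were called, both lower, against 5.51% of all genes, of which 4.47% were lower and 1.03% higher. In hippocampus minus cerebellum the same number was called, again both lower, against 4.78% of all genes, 3.97% lower and 0.808% higher. The shares of members called were thus not above those of all genes. Without the adjustment, 10 members had a p under 0.05 in SVZ minus cerebellum and 9 in hippocampus minus cerebellum, where 21.1% and 20.1% of all genes did. 0 members were called higher by limma in either comparison.

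Both stem cell regions were set against the same 5 cerebellar arrays, so the calls of the 2 comparisons are not independent. The RefSeq table of promoters (GRCm38.p6) held 23 windows for 20 of the 56 members, and those of the 2 called genes are shown because they moved together. Each window covers 250 bases before the start of the gene and 50 after it. The Cdh22 window is chr2:165234688-165234987 and the Pcdh20 window chr14:88471347-88471646, both on the minus strand and printed 5′ to 3′ along the gene. Capitals mark the motif matches found in them, a GC box (GGGCGG) in Cdh22 and a CCAAT box (CCAAT) in Pcdh20.
Cdh22: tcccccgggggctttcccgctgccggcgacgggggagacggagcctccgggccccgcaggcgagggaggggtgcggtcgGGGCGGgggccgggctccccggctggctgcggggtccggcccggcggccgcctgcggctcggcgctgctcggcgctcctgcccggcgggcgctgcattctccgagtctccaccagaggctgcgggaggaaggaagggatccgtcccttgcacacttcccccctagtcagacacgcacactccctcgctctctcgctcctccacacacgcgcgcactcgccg
Pcdh20: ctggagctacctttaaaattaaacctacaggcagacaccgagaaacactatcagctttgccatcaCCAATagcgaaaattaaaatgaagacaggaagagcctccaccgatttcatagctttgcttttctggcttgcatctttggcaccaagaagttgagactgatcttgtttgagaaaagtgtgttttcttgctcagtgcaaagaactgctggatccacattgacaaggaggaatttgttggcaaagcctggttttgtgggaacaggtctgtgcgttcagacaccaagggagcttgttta
The Cdh22 window had 76.3% GC with 38 CpG dinucleotides, and the Pcdh20 window 43.7% GC with 4. Over all 32851 windows the median GC content was 52.7%, and over the 23 member windows 60.3%, so the pair lay on opposite sides of both medians. Of 7 motifs searched on both strands, GGGCGG was in 35.7% of all windows and in 8 of the 23 member windows, and CCAAT in 37.4% and 17. The Gli site was searched first as the 8 letters GACCACCC, which were in 0.807% of all windows and 0 of the member windows, and then, with that count known, as the 9-letter GACCACCCA that contains them, in 0.253% and 0. The E-boxes CAGGTG and CACGTG were in 20.2% and 7.15% of all windows and in 5 and 1 member windows, and TATAAA in 13.6% and 2. The letters of the CCAAT box also occur in longer motifs, and a match describes the window only. The 8 windows of members with a mean of 2 or more had a median GC content of 62.3%, and the 15 of members under 2 had 54.3%.

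Cdh22 was at 1.22, 3.05, 1.40, 1.79 and 2.19 on the SVZ arrays, 2.03, 1.37, 1.61, 1.02 and 1.03 on the hippocampal arrays and 4.05, 5.26, 4.75, 5.99 and 5.51 on the cerebellar arrays. All 5 cerebellar values lay above every forebrain value. It was lower in SVZ, with a log2 difference from cerebellum of -3.18 (95% interval -4.02 to -2.34, adjusted p = 0.000247 by limma, 9.08-fold). In hippocampus the log2 difference was -3.70 (95% interval -4.54 to -2.86, adjusted p = 5.28e-05 by limma, 13.0-fold). The hippocampal values lay near the array medians, so that fold may understate the ratio. The 2 forebrain regions differed by 0.52 (95% interval -0.32 to 1.35, SVZ minus hippocampus), which was not called.

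Pcdh20 was at 1.26, 1.36, 0.90, 0.65 and 0.72 on the SVZ arrays, 0.85, 0.78, 0.78, 1.26 and 0.55 on the hippocampal arrays and 3.93, 4.25, 3.58, 4.29 and 3.93 on the cerebellar arrays. The forebrain values were all near or below the array medians, and the groups were separated by more than 2 log2 units. The log2 difference was -3.02 in SVZ (95% interval -3.43 to -2.60, adjusted p = 5.19e-07 by limma, 8.10-fold) and -3.15 in hippocampus (95% interval -3.57 to -2.74, adjusted p = 2.90e-07, 8.89-fold). Because the forebrain values lay near or below the array medians, these folds may understate the true ratio. The gene's second probe set gave 0.55 to 1.50 in SVZ, 0.88 to 1.32 in hippocampus and 2.92 to 4.71 in cerebellum, with log2 differences of -2.67 and -2.55, both called. Cdh22 had 1 probe set only.

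With the spike-in level entered as a covariate, Cdh22 differed by -2.22 in SVZ (adjusted p = 0.0156, limma) and -2.79 in hippocampus (adjusted p = 0.00221), and Pcdh20 by -2.84 and -2.98, all still called. Most Bergmann glia markers and some cerebellar neuron markers were called lower, as both genes were. Of 8 Bergmann glia markers, genes of the radial astroglia of the cerebellar cortex, 6 were called lower in each forebrain region, and their summed level was 27.6 to 45.7 in SVZ, 33.7 to 39.5 in hippocampus and 67.0 to 70.0 in cerebellum. In each comparison 1 of the 8 Bergmann glia markers had a positive difference. Of 11 cerebellar neuron markers 5 were called lower in SVZ and 3 in hippocampus, with sums of 11.1 to 21.1, 14.3 to 19.7 and 29.0 to 37.1. Of these 11 markers, 2 had a positive difference in SVZ and 1 in hippocampus, and the median differences were -0.60 and -0.55. Among them Pvalb, a calcium buffer of Purkinje cells and interneurons, was at 1.28 to 2.66 in SVZ, 0.83 to 2.10 in hippocampus and 4.17 to 6.91 in cerebellum. Of the 11 cerebellar neuron markers, 8, 9 and 5 had a mean under 2 in SVZ, hippocampus and cerebellum. The part of these cells in the Cdh22 and Pcdh20 results was not tested. In pooled samples such as these, fewer cells of a type and less RNA per cell cannot be told apart.

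**Figure D2:**
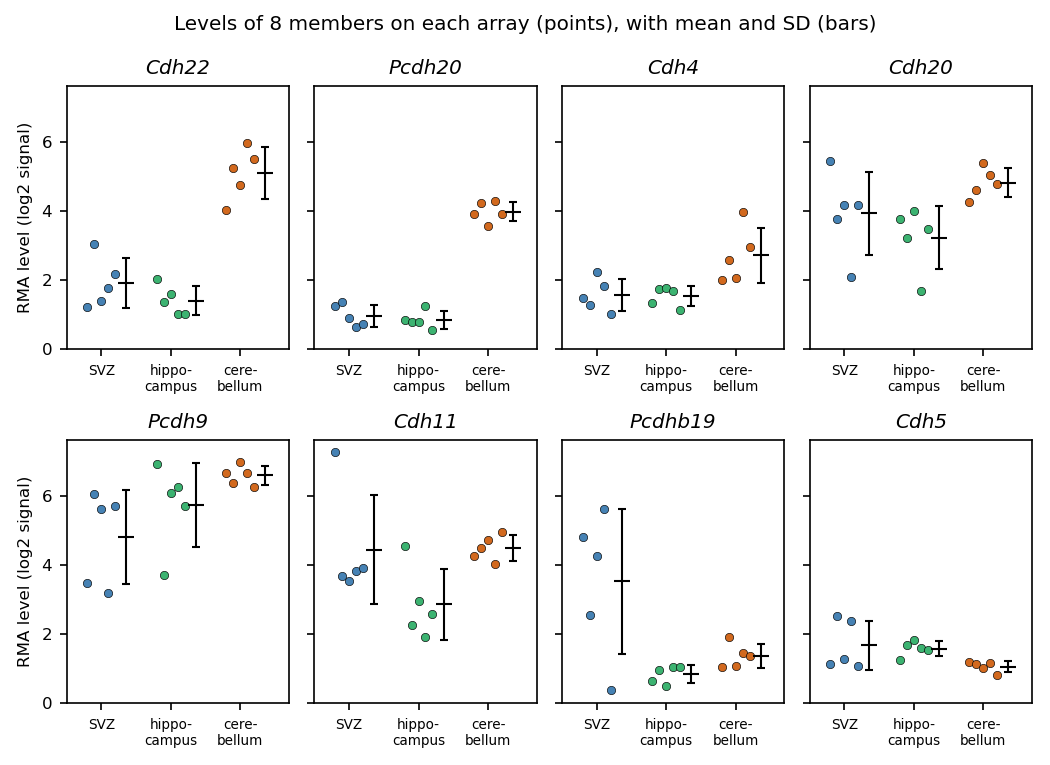
RMA levels (log2 signal, vertical axis) of 8 members on each array of SVZ, hippocampus and cerebellum, as points, with the mean and SD of each region as bars. Cdh22 and Pcdh20 separate cerebellum fully from both forebrain regions, and Pcdhb19 is at 2.55 or more on 4 of 5 SVZ arrays. The other 5 overlap in at least 1 comparison with cerebellum.

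Among the type I classical cadherins, Cdh2 (N-cadherin) was at 6.06, 6.48, 7.10, 5.07 and 4.81 in SVZ, 6.45, 5.67, 5.45, 6.68 and 5.43 in hippocampus and 3.47, 6.03, 4.59, 5.68 and 5.21 in cerebellum. The regions overlapped. Its log2 difference from cerebellum was 0.91 in SVZ (95% interval -0.20 to 2.02) and 0.94 in hippocampus (95% interval -0.17 to 2.05), neither called. Cdh4 (R-cadherin), which acts in retina and forebrain development, was at 1.50, 1.28, 2.24, 1.84 and 1.03 in SVZ, 1.35, 1.76, 1.78, 1.68 and 1.15 in hippocampus and 2.02, 2.60, 2.08, 3.97 and 2.97 in cerebellum. Every hippocampal value was below every cerebellar one, and in SVZ 1 array overlapped. The log2 differences were -1.15 and -1.18 in SVZ and hippocampus, with adjusted p = 0.0664 and 0.0657 by limma, just outside the threshold. With the arrays centred on their medians both were called, at adjusted p = 0.0451 and 0.0422. Both were also called without cerebellar array 1 (adjusted p = 0.0479 and 0.0467), and the SVZ difference without SVZ array 3 (adjusted p = 0.0463). Cdh4 was thus called under only 3 of 29 alternatives in SVZ and 2 of 29 in hippocampus. Of its other 2 probe sets, neither was called and 1 had positive differences of 0.23 and 0.27. Cdh1 (E-cadherin), Cdh3 (P-cadherin) and Cdh15 (muscle cadherin) had means of 0.83, 1.40 and 1.57, and none was called.

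The type II cadherins other than Cdh22 included 3 with a mean of 2 or more, and none of those was called. Cdh20 was at 5.46, 3.78, 4.19, 2.09 and 4.19 in SVZ, 3.78, 3.23, 4.01, 1.70 and 3.49 in hippocampus and 4.28, 4.62, 5.40, 5.05 and 4.79 in cerebellum. All hippocampal values were below all cerebellar ones. Its log2 difference was -0.89 in SVZ and -1.59 in hippocampus (adjusted p = 0.116, limma). The hippocampal difference was called under only 2 of 28 alternatives, with array weights (adjusted p = 0.0405) or without SVZ array 4 (adjusted p = 0.0494).

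Cdh11 (OB-cadherin), best known from bone and mesenchyme, was at 7.29, 3.70, 3.54, 3.85 and 3.91 in SVZ, 4.57, 2.28, 2.97, 1.92 and 2.59 in hippocampus and 4.26, 4.51, 4.74, 4.03 and 4.97 in cerebellum. SVZ array 1 stood apart, and 4 of 5 hippocampal arrays were below all cerebellar ones. The hippocampal difference was -1.64 (95% interval -3.05 to -0.22, adjusted p = 0.187). Without SVZ array 1, which enters only through the shared spread, its adjusted p was 0.0324. A second probe set of Cdh11 gave -1.59 (adjusted p = 0.0472) and the mean of both probe sets -1.61 (adjusted p = 0.0257), so the call depended on the probe set and on that array. The hippocampal difference of Cdh11 was called under these 3 of 29 alternatives only. Cdh10, a cadherin of developing cortex, was at means of 3.73 ± 0.68 in SVZ, 3.75 ± 1.06 in hippocampus and 4.18 ± 0.22 in cerebellum (SD, n = 5 each), with largely overlapping arrays. Cdh6, Cdh7, Cdh8, Cdh9 and Cdh18, which mark subsets of neurons during development, had means between 0.76 and 1.01 and reached 2 on no array. Cdh19, a cadherin of neural crest and Schwann cell precursors, was at 5.36 on SVZ array 3 and between 0.77 and 2.50 on the other 14 arrays.

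Cdh5 (VE-cadherin), which defines endothelial junctions, was at 1.14, 2.53, 1.29, 2.39 and 1.09 in SVZ, 1.26, 1.69, 1.84, 1.59 and 1.55 in hippocampus and 1.19, 1.13, 1.02, 1.16 and 0.82 in cerebellum. Its hippocampal arrays all lay above the cerebellar ones at low levels, and the log2 difference of 0.52 was not called (adjusted p = 0.295, limma). It was the 1 member higher in hippocampus with no overlap, where 2.68% of all genes were. None of 11 endothelial markers was called in either comparison, and their sums were 13.6 to 31.1 in SVZ, 13.8 to 33.4 in hippocampus and 11.1 to 17.1 in cerebellum. Of these 11 markers, 7, 7 and 11 had a mean under 2 in SVZ, hippocampus and cerebellum. Their part in the Cdh5 values was not tested. The 5 other cadherins are Cdh13, which is anchored by a lipid, the kidney cadherin Cdh16, the gut cadherin Cdh17, the hair cell cadherin Cdh23, and Cdh26. They had means between 0.83 and 1.29, and their log2 differences from cerebellum lay between 0.20 and 0.38 in SVZ and 0.14 and 0.44 in hippocampus. None was called.

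**Figure D3:**
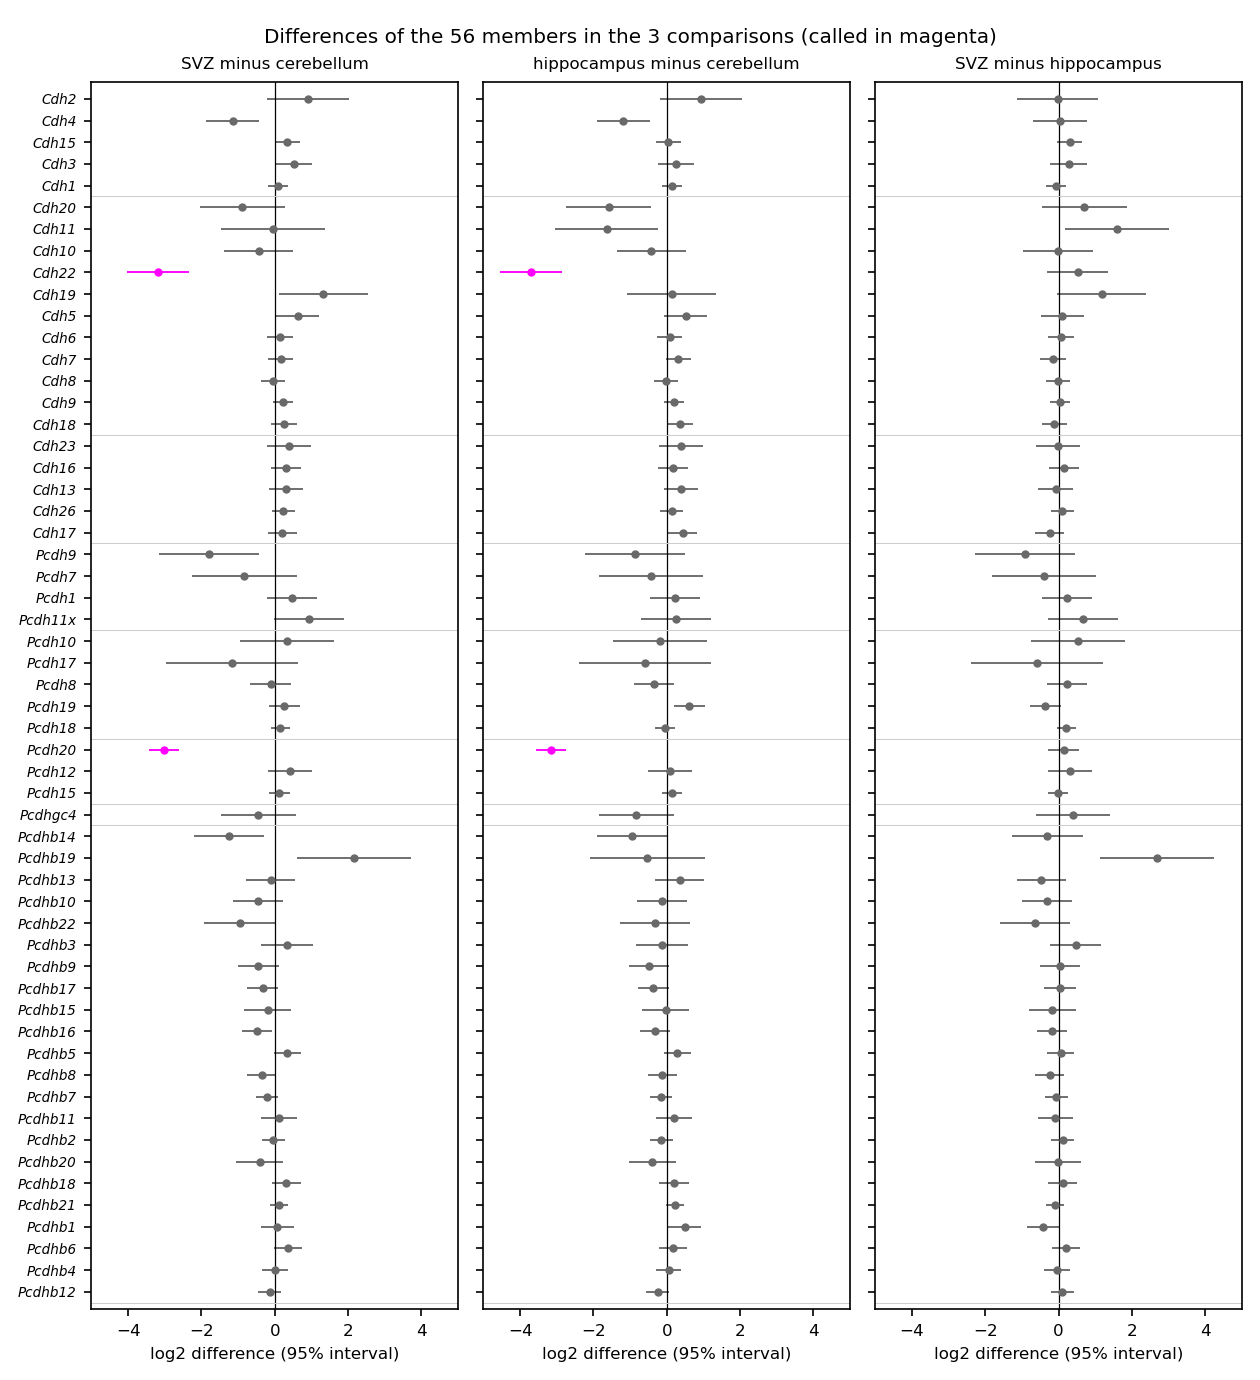
Log2 differences of the 56 members (rows, grouped by structure) in 3 comparisons, as points with 95% intervals from limma, with called members in magenta. Cdh22 and Pcdh20 are called in both comparisons with cerebellum and no member is called between SVZ and hippocampus.

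The delta-1 protocadherins carry a cytoplasmic motif that binds protein phosphatase 1, and 2 of the 4 had a mean of 2 or more. Pcdh9 was at 3.48, 6.08, 5.64, 3.20 and 5.71 in SVZ, 6.94, 3.71, 6.09, 6.26 and 5.73 in hippocampus and 6.68, 6.40, 7.00, 6.69 and 6.28 in cerebellum. Every SVZ array was below every cerebellar array, which held for 3 members in all (Cdh22, Pcdh20 and Pcdh9) and for 6.02% of all genes. No member lay wholly above cerebellum in SVZ, where 2.6% of all genes did. The log2 difference was -1.79 in SVZ (95% interval -3.14 to -0.43, adjusted p = 0.123, limma) and -0.86 in hippocampus (adjusted p = 0.445), neither called. A second Pcdh9 probe set gave a different picture. It was at 3.01, 2.05, 2.25, 1.43 and 2.76 in SVZ, 2.16, 1.64, 2.13, 2.61 and 2.25 in hippocampus and 4.72, 4.66, 4.70, 5.16 and 4.68 in cerebellum. Its log2 differences were -2.48 (adjusted p = 8.08e-05 by limma over all probe sets) and -2.63 (adjusted p = 4.51e-05), both called. The third was not called, with log2 differences of -1.83 and -0.92. The mean of the 3 probe sets was called in SVZ, at -2.03 (adjusted p = 0.0158). Of 30 alternatives for each comparison with cerebellum, 2 called Pcdh9 in SVZ and 1 in hippocampus.

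Pcdh7 averaged 3.73 ± 1.52 in SVZ, 4.13 ± 0.77 in hippocampus and 4.56 ± 0.95 in cerebellum (SD, n = 5 each), with overlap throughout. Pcdh1, an adhesion molecule of airway epithelium, averaged 2.17 ± 0.72, 1.94 ± 0.08 and 1.70 ± 0.53 in the same order. Pcdh11x, an X-linked member, was at 4.03 on SVZ array 1 and at 1.94 or less on the other 14 arrays.

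**Figure D4:**
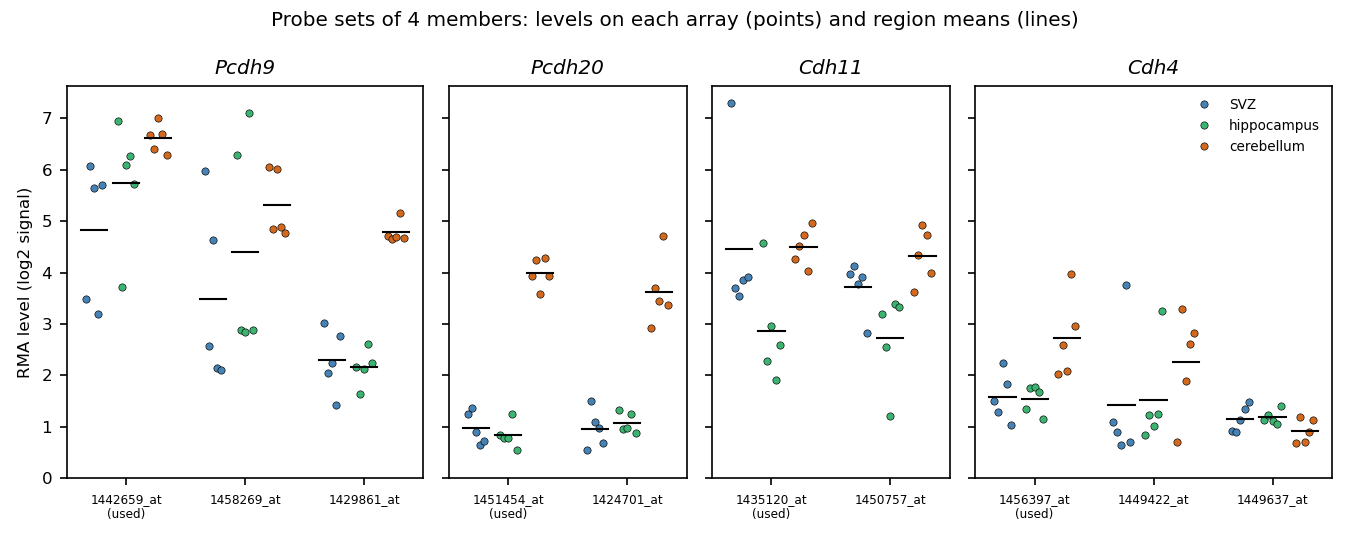
RMA levels (log2 signal, vertical axis) of every probe set of Pcdh9, Pcdh20, Cdh11 and Cdh4 on each array of SVZ, hippocampus and cerebellum, as points, with region means as lines. Both Pcdh20 probe sets separate the cerebellum, whereas the 3 Pcdh9 probe sets differ, with only the dimmest separating it on every array.

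The delta-2 protocadherins recruit the WAVE actin regulator, and 2 of the 5 had a mean of 2 or more. Pcdh10 was at 3.91, 6.17, 5.43, 8.09 and 5.73 in SVZ, 5.97, 5.03, 4.89, 5.42 and 5.43 in hippocampus and 6.37, 4.32, 5.43, 6.03 and 5.49 in cerebellum. No region stood apart, and the log2 differences from cerebellum were 0.34 (95% interval -0.94 to 1.62) in SVZ and -0.18 (95% interval -1.46 to 1.10) in hippocampus. The hippocampal interval holds changes of more than 2-fold in either direction. Pcdh17 was at 5.90, 4.41, 6.44, 1.14 and 2.51 in SVZ, 5.52, 3.43, 4.99, 4.23 and 5.15 in hippocampus and 5.39, 6.03, 5.43, 4.99 and 4.43 in cerebellum. The SVZ arrays alone fell below 3, on arrays 4 and 5, and no difference was called. Pcdh19, an X-linked gene mutated in a form of epilepsy, was at 1.07, 1.13, 0.97, 1.60 and 1.24 in SVZ, 1.04, 1.84, 1.95, 1.14 and 1.85 in hippocampus and 0.93, 0.84, 1.13, 0.94 and 0.90 in cerebellum. Its difference of 0.62 in hippocampus was not called (adjusted p = 0.0939, limma), but was called with array weights (0.65, adjusted p = 0.0330) or without hippocampal array 1 (0.75, adjusted p = 0.0414). These were the only calls among 29 alternatives. Pcdh8 and Pcdh18 averaged 1.52 and 0.99. Of the other non-clustered genes, Pcdh12, an endothelial protocadherin, averaged 1.21 and Pcdh15, a partner of Cdh23 in hair cells, 0.86.

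The beta cluster is a row of 22 single-exon genes from which neurons choose a few each, and 21 of the 22 had a mean under 2. None was called in any comparison, and of the 22 differences 13 were negative in SVZ and 14 in hippocampus. 3 had an unadjusted p under 0.05 in SVZ and 1 in hippocampus. Pcdhb14 was the exception in level, at 3.56, 2.84, 4.30, 1.57 and 3.50 in SVZ, 3.45, 3.48, 2.53, 3.88 and 3.98 in hippocampus and 4.05, 4.23, 5.37, 4.41 and 3.97 in cerebellum. Its probe set carries the suffix for probes that can match other sequences, and its second probe set, without that suffix, averaged 1.31, 1.18 and 1.57 in the same regions, so its level is uncertain. The gamma cluster gene Pcdhgc4 averaged 2.10 ± 0.90 in SVZ, 1.71 ± 0.79 in hippocampus and 2.55 ± 0.70 in cerebellum (SD, n = 5 each), with overlap.

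Pcdhb19, named after its values were seen, was at 4.83, 2.55, 4.27, 5.63 and 0.39 in SVZ, 0.65, 0.96, 0.50, 1.06 and 1.06 in hippocampus and 1.04, 1.92, 1.07, 1.45 and 1.38 in cerebellum. It was high on 4 SVZ arrays and on no array of the other regions, and SVZ array 5 was the lowest of all 15. The log2 difference was 2.16 from cerebellum (95% interval 0.60 to 3.72, adjusted p = 0.104, limma) and 2.69 from hippocampus (95% interval 1.13 to 4.25, adjusted p = 0.430). Without SVZ array 5 both were called, at 2.95 (adjusted p = 0.00262) and 3.47 (adjusted p = 0.0235). Of 27 alternatives for each, 1 called the difference from cerebellum and 2 that from hippocampus. Of 11 microglia markers, genes of the brain's resident immune cells, 3 were called higher in SVZ and 1 in hippocampus than in cerebellum, with sums of 28.2 to 56.4 in SVZ, 25.6 to 46.8 in hippocampus and 14.5 to 25.2 in cerebellum. Of 10 oligodendrocyte precursor markers 2 were called higher in SVZ than in cerebellum, Olig1 by 4.52 and Olig2 by 1.03. In that comparison 3 of the 10 had negative differences, down to -2.46. In hippocampus 1 of the 10 was called higher and 2 lower than in cerebellum, with differences from -4.09 to 4.02. The sums of these 10 were 23.4 to 32.9 in SVZ, 15.9 to 20.3 in hippocampus and 19.3 to 21.5 in cerebellum. Of 8 pericyte and mural markers 1 was called higher in SVZ, Pdgfrb, and the sums were 16.2 to 39.5, 20.5 to 35.9 and 14.3 to 21.4 in the same order. In SVZ, hippocampus and cerebellum, 4, 4 and 8 of the 11 microglia markers had a mean under 2. So did 6, 8 and 8 of the 10 precursor markers and 2, 3 and 5 of the 8 pericyte and mural markers. The part of these cells in the Pcdhb19 values was not tested. Beta cluster genes are near-identical in parts of their sequence, and Pcdhb19 had 1 probe set only.

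Between the 2 stem cell regions the question was whether the family differs at all. By limma 0 of 56 members were called in SVZ minus hippocampus, against 0.022% of all genes (4 genes), and 2 members, Cdh11 and Pcdhb19, had an unadjusted p under 0.05, as did 7.02% of all genes. No member separated the arrays of the 2 regions, where 0.813% of all genes did. The differences ranged from -0.92 for Pcdh9 to 2.69 for Pcdhb19, with a median of 0.03. The 95% intervals of the members with a mean of 2 or more were wide, for example -1.14 to 1.08 for Cdh2 and -2.28 to 0.43 for Pcdh9, so these data do not show that the 2 regions are alike.

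Over the whole family, the median log2 difference from cerebellum was 0.10 in SVZ and 0.01 in hippocampus, against 0.07 and 0.07 for all genes. For the 11 members with a mean of 2 or more over the 15 arrays, cerebellum included, the medians were -0.83 and -0.84. For all genes with such a mean they were -0.56 and -0.55. Cdh22 passed that filter through its cerebellar mean of 5.11, against 1.93 in SVZ and 1.41 in hippocampus. It had the most negative difference of the 11 in both comparisons. The gap between these members and all genes was not tested. In hippocampus 4 members lay wholly below cerebellum (Cdh22, Pcdh20, Cdh20 and Cdh4), where 5.3% of all genes did. Of the 27 members with several probe sets, the 45 further probe sets had the same sign as the chosen one in 32 cases in SVZ and 28 in hippocampus.

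The partners that cadherins act through were read from lists of their genes. Of all genes, 4.47% were called lower in SVZ and 3.97% in hippocampus, and the medians of the genes with a mean of 2 or more over the 15 arrays, cerebellum included, were -0.56 and -0.55. The counts and medians of the lists are given to be read beside these, and the lists themselves were not tested. Of 18 catenin and adherens junction genes 2 were called lower in each forebrain region and 0 higher, with median differences of -0.47 and -0.25. Ctnna3 (alpha-T-catenin), the alpha-catenin of heart muscle, was at 1.33, 1.27, 1.36, 1.44 and 1.23 in SVZ, 1.32, 0.80, 1.92, 0.89 and 1.08 in hippocampus and 6.41, 4.80, 5.00, 3.80 and 4.03 in cerebellum. No forebrain value reached 2, and the log2 differences were -3.48 (adjusted p = 0.000112, limma) and -3.61 (adjusted p = 6.56e-05). Because the forebrain values lay near the array medians, these differences may understate the true ones. A further Ctnna3 probe set gave a smaller difference in SVZ, -0.77, which was not called (adjusted p = 0.0646, limma over all probe sets). In hippocampus the smallest difference among 29 alternatives was -0.88, and all 29 were called. Ctnnb1 (beta-catenin), the link between cadherin and alpha-catenin and also a Wnt effector, was at 7.46, 8.85, 8.02, 8.87 and 8.52 in SVZ, 7.49, 9.81, 8.08, 8.65 and 8.66 in hippocampus and 10.47, 10.09, 9.26, 9.48 and 9.84 in cerebellum. It was lower in SVZ by a log2 difference of -1.48 (adjusted p = 0.0452, limma), a call kept under 13 of 29 alternatives, and the hippocampal difference of -1.29 was not called (adjusted p = 0.0871). Pkp4, a junctional armadillo protein, was lower in hippocampus, at 4.05, 6.19, 5.81, 2.40 and 4.16 against 8.29, 7.80, 7.13, 6.54 and 6.73 in cerebellum (log2 difference -2.78, adjusted p = 0.0215, limma). Its SVZ values, 4.53 to 6.34, also lay below every cerebellar one, and the SVZ difference of -1.86 was not called. It was called with only the regions compared fitted (adjusted p = 0.0314, limma) or with probe sets averaged (-2.45, adjusted p = 0.00668).

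Of 10 actin-regulating and other cytoplasmic partners of the protocadherins, 2 were called lower in SVZ and 1 in hippocampus, with median differences of -0.96 and -0.91. Abi2, a subunit of the WAVE complex, was at 1.97, 4.03, 2.65, 2.84 and 3.24 in SVZ, 3.43, 2.64, 2.64, 3.10 and 3.98 in hippocampus and 4.87, 5.99, 5.02, 5.55 and 5.32 in cerebellum. All its forebrain values were below all cerebellar ones, with log2 differences of -2.40 (adjusted p = 0.00147, limma) and -2.19 (adjusted p = 0.00276). With the spike-in level as a covariate the log2 differences were -2.02 and -1.82, no longer called (adjusted p = 0.0897 and 0.120). A further Abi2 probe set gave -0.63 and -0.91, neither called (adjusted p = 0.477 and 0.307, limma over all probe sets). Nckap1, the WAVE subunit that delta-2 protocadherins contact, was lower in SVZ by a log2 difference of -1.61 (adjusted p = 0.00991, limma), and by -1.25 with the covariate, which was not called (adjusted p = 0.302). Its hippocampal difference of -1.12 was not called, but was under 6 alternatives. All forebrain values of Nckap1, 6.68 at most, were below all cerebellar ones, 6.98 at least.

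Of 10 regulators of cluster promoter choice, 1 was called lower in SVZ and 0 in hippocampus, where 3 had an unadjusted p under 0.05 by limma. The 1 called was Stag2, a cohesin subunit, at 1.15, 1.48, 2.29, 3.21 and 3.21 in SVZ against 4.49, 3.30, 4.39, 3.99 and 3.97 in cerebellum (log2 difference -1.76, adjusted p = 0.0179). Its hippocampal values, 2.12 to 3.15, and its SVZ values all lay below every cerebellar one. Its hippocampal difference of -1.41 was not called, but was under several alternatives. Among these were fitting only the regions compared (adjusted p = 0.0133, limma) and centring the arrays on their medians (-1.52, adjusted p = 0.0417). Of 7 processing genes 1 was called, Adam10, the sheddase that cleaves N-cadherin, lower in hippocampus by a log2 difference of -1.71 (adjusted p = 0.0341, limma), kept under 15 of 31 alternatives. Its SVZ difference of -1.46 was not called, but was under several alternatives. These included centring the arrays on their medians (-1.56, adjusted p = 0.0445, limma) and leaving out SVZ array 4 (-1.77, adjusted p = 0.0221). Of 5 repressors of cadherin transcription 1 was called lower in each forebrain region, Zeb2, which represses E-cadherin. It was at 5.17, 5.64, 6.13, 3.82 and 5.94 in SVZ, 4.88, 5.15, 7.07, 5.87 and 4.85 in hippocampus and 8.98, 8.64, 7.56, 6.66 and 7.16 in cerebellum, with log2 differences of -2.46 (adjusted p = 0.0198, limma) and -2.24 (adjusted p = 0.0358). Other Zeb2 probe sets did not all share that direction. With the spike-in covariate Zeb2 differed by -3.29 and -3.03 (adjusted p = 0.0513 and 0.0665, limma), Stag2 by -2.04 in SVZ, Pkp4 by -3.01 and Adam10 by -1.23 in hippocampus and Ctnnb1 by -1.36 in SVZ. Each of these kept its direction without a call, and Ctnna3 was still called at -4.56 and -4.63. A call lost with the covariate does not show that the difference is absent.

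Of 23 other cadherin superfamily genes 1 was called, Celsr1, a planar polarity cadherin. It was higher in hippocampus, at 1.59, 1.26, 1.62, 2.40 and 1.66 against 1.06, 0.77, 0.98, 0.74 and 0.80 in cerebellum (log2 difference 0.84, adjusted p = 0.0228, limma), a change at low levels kept under 20 of 27 alternatives. With the spike-in covariate it differed by 0.62 and was not called (adjusted p = 0.406). In SVZ none of the 23 was called and 6 had an unadjusted p under 0.05. By limma 0 genes of the 6 partner lists were called between SVZ and hippocampus, and 4 had an unadjusted p under 0.05.

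**Figure D5:**
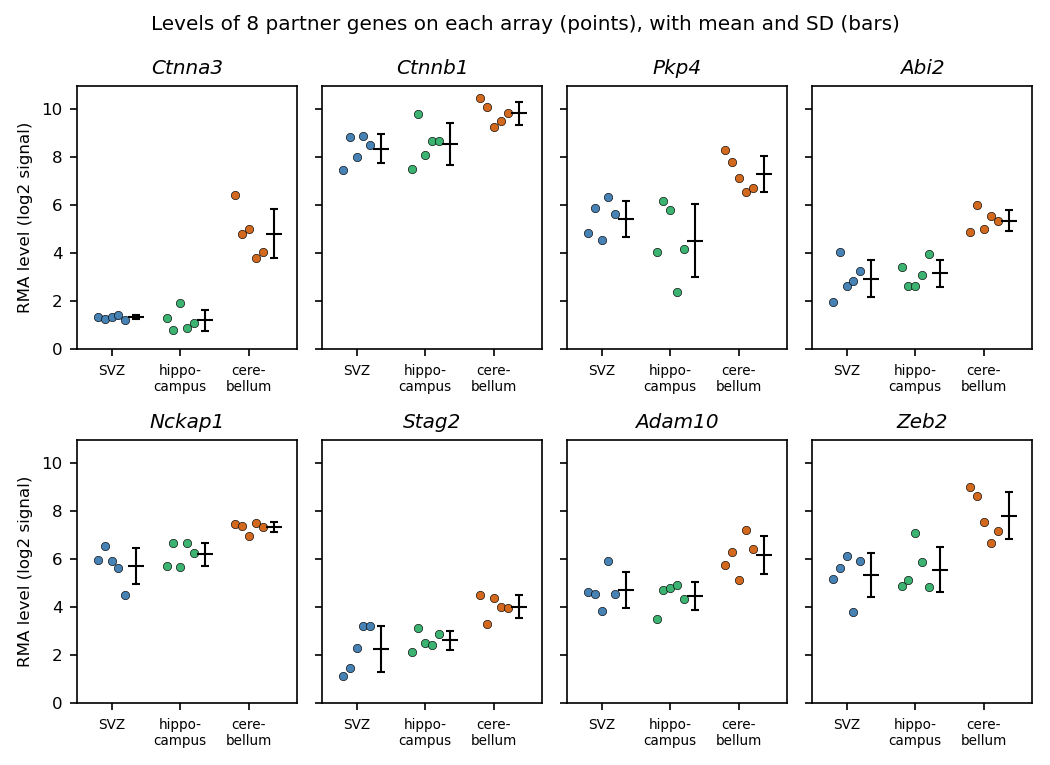
RMA levels (log2 signal, vertical axis) of 8 partner genes on each array of SVZ, hippocampus and cerebellum, as points, with the mean and SD of each region as bars. Ctnna3 and Abi2 are among the genes that separate the cerebellar arrays from both forebrain regions, whereas Adam10 overlaps in SVZ and Zeb2 and Ctnnb1 in hippocampus.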

How the data were processed

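RNA of sorted Gli1+ GFAP+ cells was measured on 15 Affymetrix mouse arrays, 5 per region, grouped by titles and tissue labels. The authors deposited RMA values, per the submitters' processing notes, which were read here as log2 signal since no log base is stated. No detection calls came with them, the array number limits the precision, and 1 value was below 0. The WT-Ovation Pico amplification named in the labels' protocols works from little RNA, which can add noise at low levels.

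Of 45101 probe sets, 34958 carried 1 symbol and 932 several, and 9211 were unlisted. The probe set with the highest mean stood for each of 18193 genes. limma 3.58.1 in R 4.3.3 (data.table package 1.17.8) fitted region over all 15 arrays, with Benjamini-Hochberg adjustment over all genes and calls at an adjusted p under 0.05. The fit was tested on simulated data. Named members were those called, the 5 highest per region, a list of brain members, and those whose arrays did not overlap, and per partner list and comparison the 2 largest called differences each way or, with none called, the 2 smallest p values. Pcdhb19, Pcdhb14, Cdh19, Pcdh11x and Pcdhgc4 were added after their values were seen. The members and lists were chosen with earlier results of these data known. Promoter windows came from RefSeq (GRCm38.p6). Figures used matplotlib 3.10.9 in Python 3.11.15. Alternatives covered normalization, centring, filters, probe set choice, weights, spread, thresholds, the replicate block and left-out arrays.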

Additional observations from a re-analysis of the deposited data

Results flagged for a closer look

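In 15 of 153 groups of 5 arrays, 5 in each region, 1 array stood far from the other 4 by Dixon's test, which chance alone does for about 1 group in 20. Of these, 3 belong to members named after their values were seen (Pcdh11x, Pcdhgc4 and Cdh19), and without the members so named it was 12 of 138 groups. Among the members, Cdh11 was at 7.29 on SVZ array 1, with the other SVZ arrays between 3.54 and 3.91. Pcdh11x was high on the same array, at 4.03 against 1.12 to 1.62 on the others. Cdh13 was at 1.97 on SVZ array 4, with the others between 0.85 and 1.17. On cerebellar array 1, Pcdhgc4 was at 3.78 with the others between 2.16 and 2.48, Cdh6 at 1.44 with the others between 0.79 and 0.89, and Cdh19 at 0.77 with the others between 1.49 and 1.59. Pcdh15 was at 0.55 on cerebellar array 4, with the others between 0.79 and 0.84.

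Among the sort genes and partners, Gli1 was at 5.06 on SVZ array 3 with the others between 1.79 and 2.73, and at 6.22 on hippocampal array 5 with the others between 1.54 and 2.19. On hippocampal array 4, Ctnna2 was at 6.41 with the others between 1.32 and 2.25, Snai2 at 4.97 with the others between 0.46 and 1.19, and Clstn1 at 4.19 with the others between 5.42 and 5.78. Snai1 was at 0.71 on hippocampal array 5, Aph1a at 3.81 on SVZ array 2 and Ptk2b at 2.99 on cerebellar array 5.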

How the results depend on the processing

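Cdh22 and Pcdh20 stayed called lower in both regions under all 28 alternatives run for each, with log2 differences of -3.46 to -2.22 (SVZ) and -3.97 to -2.79 (hippocampus) for Cdh22 and -3.12 to -2.67 and -3.26 to -2.55 for Pcdh20. Leaving out genes with a mean under 2 removed Pcdh20 from testing, so 1 member was called lower in each. Of 261 recomputed counts 219 stayed within 1.5 times and 42 did not. Members called lower in hippocampus numbered 4 with every probe set on its own. Members called higher numbered 1 in hippocampus with array weights (Pcdh19), and 1 in SVZ minus hippocampus at more than 4-fold and p under 0.01 (Pcdhb19).

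Leaving out 1 array at a time gave 2 to 3 members lower in either region and 0 to 1 higher in each of the 3 comparisons (1 without SVZ array 5 in both SVZ comparisons, or without hippocampal array 1). Genes called over the whole array then ranged from 612 to 1094 in SVZ minus cerebellum, 545 to 1162 in hippocampus minus cerebellum and 1 to 11 in SVZ minus hippocampus. The 612 came without cerebellar array 5, and arrays 2, 4 and 5 of the cerebellum gave 545, 549 and 548 in hippocampus. In SVZ minus cerebellum the 1002 genes called became 1561 with array weights, 1806 probe sets with each tested on its own, 584 at the 4-fold threshold, 609 with quantile normalization, 191 with the spike-in covariate and 368 without cerebellar arrays 4 and 5. In hippocampus minus cerebellum the 869 became 1528, 522, 492, 220 and 358 under the same settings other than array weights. In SVZ minus hippocampus the 4 became 0 with dim genes left out, probe sets averaged, only those regions fitted, or a trended and robust spread, 65 at the 4-fold threshold, 2 with the spike-in covariate, 9 without SVZ array 1 and hippocampal array 3, and 1 without cerebellar arrays 4 and 5. The cause was not tested. The covariate and both pairs of left-out arrays were chosen after seeing the data.

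Among single genes, 4275 of 4410 recomputed values stayed on their side of the threshold, of which 4048 kept their direction and 227, uncalled either way, changed sign. Another 75 lost a call, 57 gained one and 3 changed sign with a call on one side: 1 further Zeb2 probe set (0.02 in SVZ, 0.30 in hippocampus) and 1 further Adam10 probe set (0.12 in hippocampus). Single arrays ended several partner calls. Ctnnb1 lost its call without any 1 of SVZ arrays 1, 3 and 5, hippocampal arrays 4 and 5 or the 5 cerebellar arrays (adjusted p 0.0509 to 0.102). Pkp4 lost it without hippocampal array 1 or cerebellar array 1 or 2 (0.050 to 0.060), Celsr1 without cerebellar array 2, 4 or 5 (0.0604 to 0.0619) and Adam10 without hippocampal array 1, 3 or 5 or cerebellar array 2, 4 or 5 (0.0520 to 0.0869). Zeb2 lost its SVZ call without cerebellar array 1 or 2 (0.0505 and 0.0560), and its hippocampal call without hippocampal array 1, 2, 4 or 5 or cerebellar array 1, 2, 3 or 5 (0.0525 to 0.0960).

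Replicate numbers were not taken to pair the arrays, since the labels give no shared origin. For a check, the region mean of each gene was subtracted and the deviations were correlated, over genes with a mean of 3 or more. By these deviations same-numbered arrays correlated over 0.1 in only 1 of 5 pairs of SVZ with cerebellum, 2 of 5 of hippocampus with cerebellum and 1 of 5 of SVZ with hippocampus. By deviations over all genes, an array correlated best with its own number in 16 of 30 comparisons with another region, where unrelated numbers would give about 6. That is a hint from the data that some numbers may share an origin. With the replicate number as a block, 2 members were called lower in each forebrain region and 0 in SVZ minus hippocampus, and 1011, 814 and 4 genes were called in the 3 comparisons.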
